A study of Homo sapiens with 8 samples.

Results

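The microRNAs (miRNAs) described here are the 4 mature products of the hairpins MIR221 and MIR222: hsa-miR-221-3p, hsa-miR-221-5p, hsa-miR-222-3p and hsa-miR-222-5p. They were taken by name from a table of raw read counts for 2026 miRNA entries, and all 4 passed the filter on low counts, as did 570 entries in all. The cells were HCT116, an established human colorectal cancer cell line, grown as spheroids in serum-free medium with B27 and N2 supplements, basic fibroblast growth factor and epidermal growth factor in low-attachment flasks. The spheroid cells were stained for CD44v6 (the hyaluronan receptor CD44 spliced to include variant exon v6, in use as a surface mark of stem-like tumour cells) and sorted by flow cytometry into a CD44v6-positive and a CD44v6-negative group, with dead cells removed by propidium iodide. All samples share this line, medium and sort, and the label that sets the groups apart is the CD44v6 stain. Each group has 2 samples, and no label says that they came from separate cultures, so the spread behind each p-value may be technical.

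miR-221 and miR-222 are cut from a common primary transcript. Each hairpin yields a product from its 5′ arm (5p) and from its 3′ arm (3p), and the arm loaded into the silencing complex, here chiefly the 3p arm, is the guide. A miRNA finds its messenger RNAs mainly through its seed, the bases 2 to 8 from its 5′ end. The 3p arms of the pair are known to repress CDKN1B, an inhibitor of cyclin-dependent kinases that holds back entry into S phase, and KIT, the receptor tyrosine kinase for stem cell factor. In several epithelial tumours they are studied as drivers of proliferation.

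MIR221 lies at chrX:45746157-45746266 and MIR222 at chrX:45747015-45747124 (GRCh38, minus strand). The hairpins are separated by 748 bases, and both fall in an intron of the long noncoding RNA gene MIR222HG (chrX:45745211-45770274, GENCODE release 29). The hairpins are shown because the comparison of arms rests on them. The sequences are those of RefSeq (GRCh38.p14), in which 3 of the 4 mature products matched by name, and capitals mark these mature products.
MIR221: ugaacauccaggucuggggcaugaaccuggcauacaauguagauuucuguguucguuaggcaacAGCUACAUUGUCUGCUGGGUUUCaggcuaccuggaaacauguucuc
MIR222: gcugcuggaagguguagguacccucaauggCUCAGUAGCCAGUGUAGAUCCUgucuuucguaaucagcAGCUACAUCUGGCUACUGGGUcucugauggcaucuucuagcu

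The mature sequences show how alike the 2 guides are, and here capitals mark the seed.
miR-221-3p: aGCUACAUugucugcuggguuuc
miR-222-3p: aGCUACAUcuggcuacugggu
miR-222-5p: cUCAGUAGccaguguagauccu
The 3p arms share their first 8 bases, and hence the whole seed, and no other RefSeq mature human miRNA has that seed. Beyond it they part. Over the 21 bases that can be compared without a gap, 11 are identical and 10 differ, the first being U9C (miR-221-3p base, position from the 5′ end, miR-222-3p base). The longest run they have in common is 8 bases, so full-length reads of one do not match the other. The seed of miR-222-5p is shared with no other mature entry.

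The seed match ATGTAGC, searched on the sense strand of annotated 3′ UTRs, occurs at 2 places in CDKN1B and at 2 places in KIT. These stretches (GRCh38, plus strand, from GENCODE transcripts) are printed because they are what both guides can pair with through the same seed, and capitals mark the match. In each of the 4 the base after the match is A.
CDKN1B, chr12:12721207-12721236: atctgcctctaaaagcgttggATGTAGCat
CDKN1B, chr12:12721280-12721309: tgtatatagtttttaccttttATGTAGCac
KIT, chr4:54739566-54739595: gccatcttagtttggattcttATGTAGCag
KIT, chr4:54740495-54740524: gctttttttgtaaatattgaaATGTAGCaa
For comparison, among 8385 protein-coding genes with a 3′ UTR at least as long as that of CDKN1B (1344 bases), 6.45% hold at least 1 match in a window of that length and 0.286% hold at least 2. In the 5424 genes with a 3′ UTR at least as long as that of KIT (2158 bases), those shares are 10.4% and 0.701%. Both genes were chosen as known targets, so matches in them were likely beforehand and these shares are no test. Messenger RNA was not analysed here, and a match is a description of the letters only.

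The libraries differ in depth, which bears on every value that follows. There were 7880631 and 4592278 reads for CD44v6-negative samples 1 and 2, but 919802 and 154481 for CD44v6-positive samples 1 and 2. Levels are given as CPM, reads of a miRNA per 1000000 reads of its library, scaled between libraries by TMM (trimmed mean of M values). A count of 0 allows up to 3 reads, which were 0.574, 0.544, 3.24 and 15.6 CPM in CD44v6-negative samples 1 and 2 and CD44v6-positive samples 1 and 2. Epithelial and intestinal miRNAs were present in every library. The summed level of 5 of them (miR-200c-3p, miR-141-3p, miR-200b-3p, miR-192-5p and miR-194-5p) was 30037 and 17750 CPM in the CD44v6-negative and 16781 and 13128 CPM in the CD44v6-positive samples. The members differed in direction. miR-141-3p was lower in both CD44v6-positive samples, at 11210 and 5346 against 1940 and 1173 CPM, as were 34.6% of tested miRNAs. For the others the groups overlapped, and miR-192-5p and miR-194-5p were highest in CD44v6-positive sample 2, at 4560 and 235 CPM.

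miR-222-3p was the member that stood apart between the sorted groups. It was read 50936 and 30985 times in CD44v6-negative samples 1 and 2, and 22969 and 3395 times in CD44v6-positive samples 1 and 2. At the unequal depths these counts were 9745 and 5618 CPM against 24785 and 17693 CPM. Both CD44v6-positive samples thus lay above both CD44v6-negative samples. The group means were 21239 ± 5015 and 7682 ± 2919 CPM (SD, n = 2), and the log2 fold change, positive minus negative, was 1.47 ± 0.48 (SE). The median over all tested miRNAs was -0.31 on that scale. In edgeR's quasi-likelihood test the unadjusted p was 0.0214 and the Benjamini-Hochberg adjusted p over all tested miRNAs was 0.125, so miR-222-3p did not pass the threshold of 0.05. None of the 570 tested miRNAs did (0%).

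By unadjusted p miR-222-3p was 97th of the 570, and 30.5% of tested miRNAs had an unadjusted p under 0.05 (13.0% with the positive group higher). Groups that do not overlap were also common, in 59.5% of tested miRNAs, and in 24.9% with the CD44v6-positive samples higher. DESeq2 gave an adjusted p of 0.0945 for miR-222-3p and called 14.3% of the miRNAs for which it gave one, and limma-voom gave 0.113 and called 0.702%. With libraries scaled by total count alone the log2 fold change was 1.83 and edgeR's adjusted p was 0.00983, a setting in which 48 miRNAs passed. Leaving out 1 sample at a time, the log2 fold change stayed positive and ran from 1.09, without CD44v6-positive sample 1, to 1.99, without CD44v6-negative sample 1, with edgeR adjusted p of 0.0927 to 0.411.

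miR-221-3p, which carries the same seed, did not separate the groups. Its counts were 53863 and 18802 in the CD44v6-negative samples and 10468 and 437 in the CD44v6-positive samples, or 10305 and 3409 CPM against 11296 and 2277 CPM. The highest and the lowest of these 4 levels both belonged to CD44v6-positive samples, so the groups overlapped. The means were 6857 ± 4876 CPM for the negative and 6787 ± 6377 CPM for the positive group (SD, n = 2), and the log2 fold change was -0.01 ± 0.86 (edgeR adjusted p = 0.990). Its sign depended on the processing, being 0.06 with DESeq2, 0.35 with upper quartile and 0.38 with total count scaling, and it ran from -1.70 without CD44v6-positive sample 1 to 1.06 without CD44v6-negative sample 1. With so large an SE the level is not shown to be the same in both groups.

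**Figure D1:**
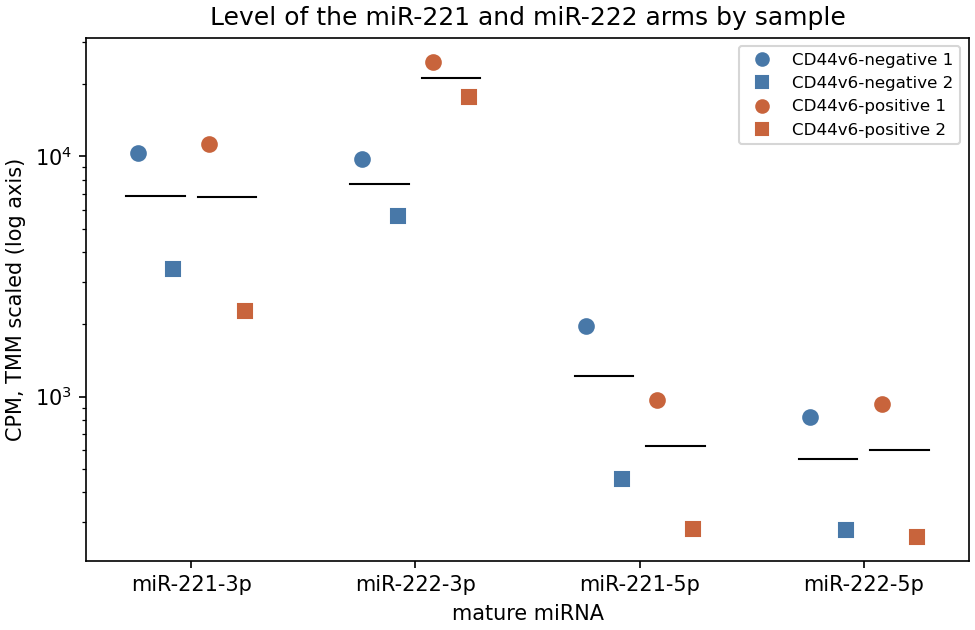
Level of each arm in each sample, in TMM-scaled CPM on a log axis, with circles for sample 1 and squares for sample 2 of the CD44v6-negative (blue) and CD44v6-positive (orange) groups and black bars for the group means. Only for miR-222-3p do both CD44v6-positive samples (24785 and 17693 CPM) lie above both CD44v6-negative samples (9745 and 5618 CPM).

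The less abundant 5p arms, the usual passenger strands, overlapped between the groups. For miR-221-5p 10332 and 2502 reads (1977 and 454 CPM) were counted in the negative group, against 899 and 54 reads (970 and 281 CPM) in the positive group. The log2 fold change came to -0.95 ± 0.88, with an edgeR adjusted p of 0.512 and with the CD44v6-positive samples below the higher and around the lower of the CD44v6-negative samples. Without CD44v6-negative sample 1 the value was 0.54. miR-222-5p had 4307 and 1535 reads (824 and 278 CPM) against 867 and 50 reads (936 and 261 CPM). Its log2 fold change was 0.13 ± 0.80, with an edgeR adjusted p of 0.928. As for miR-221-3p, its highest and lowest levels were both in CD44v6-positive samples, and its sign turned with no filter on low counts (-0.24) and without CD44v6-positive sample 1 (-1.19) or CD44v6-negative sample 2 (-0.30).

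Within a group, 3 of the arms differed by several fold between the samples in TMM-scaled CPM. In the CD44v6-negative group sample 1 exceeded sample 2 by 3.02-fold for miR-221-3p, 4.36-fold for miR-221-5p and 2.96-fold for miR-222-5p. In the CD44v6-positive group the same folds were 4.96, 3.45 and 3.59. miR-222-3p was steadier, at 1.73-fold and 1.40-fold. The folds depend on the scaling, with TMM factors of 0.663 and 1.20 for CD44v6-negative samples 1 and 2. Without TMM, miR-221-3p was at 6835 and 4094 CPM in the CD44v6-negative and 11381 and 2829 CPM in the CD44v6-positive samples. On that scale miR-222-3p was at 6463 and 6747 CPM in the CD44v6-negative and 24972 and 21977 CPM in the CD44v6-positive samples. Among the 189 tested miRNAs with a mean of at least 100 CPM, the median fold between samples was 1.52 in the CD44v6-negative and 1.51 in the CD44v6-positive group. A wider gap than that of miR-221-3p was found for 18 of these miRNAs in the CD44v6-negative and for 9 in the CD44v6-positive group, whereas 74 and 106 had a wider gap than miR-222-3p.

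The balance between the hairpins can be read inside each library, free of scaling between libraries but not of depth. Both CD44v6-positive libraries were shallower than both CD44v6-negative libraries, so depth goes with the sort. For the 3p arms 0.946 and 1.65 miR-222 reads were counted for each miR-221 read in CD44v6-negative samples 1 and 2, and 2.19 and 7.77 in CD44v6-positive samples 1 and 2. This ratio rose steadily from the deepest library to the shallowest, and the part of depth in it was not tested. miR-222-3p therefore made up 48.6% (95% Wilson interval 48.3% to 48.9%) and 62.2% (61.8% to 62.7%) of the reads of both guides in the CD44v6-negative samples. In the CD44v6-positive samples it made up 68.7% (68.2% to 69.2%) and 88.6% (87.6% to 89.6%). These intervals cover counting error alone and treat each read as an independent draw. PCR copies of 1 molecule can be read more than once, so the intervals may be too narrow even for that. The groups did not overlap, and the distance between the samples of a group was far larger than the counting intervals.

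The mean log2 ratio of miR-221-3p to miR-222-3p was -2.04 ± 1.29 in CD44v6-positive and -0.32 ± 0.57 in CD44v6-negative cells (SD, n = 2), a difference of -1.72, or a 3.31-fold lower ratio. The exact two-sided permutation test over samples gave p = 0.333, the smallest value that 2 samples against 2 can give, and the value adjusted over the 2 ratios tested was also 0.333. The size of the difference rested largely on CD44v6-positive sample 2, where 437 reads of miR-221-3p were counted. Without that sample the difference was -0.81, and without CD44v6-positive sample 1 it was -2.64.

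The 5p arms gave a smaller difference when the log ratios of all samples were averaged, but this order rested on CD44v6-positive sample 2. Without that sample the difference was -0.93 for the 5p and -0.81 for the 3p arms. With reads summed over a group it was -1.08 for the 5p and -1.10 for the 3p arms. For each miR-221-5p read 0.417 and 0.614 reads of miR-222-5p were counted in CD44v6-negative samples 1 and 2, against 0.964 and 0.926 in CD44v6-positive samples 1 and 2. The latter value comes from 50 and 54 reads, and the share of miR-222 in them, 48.1%, has a Wilson interval of 38.7% to 57.6%. The mean log2 ratio of miR-221-5p to miR-222-5p was 0.08 ± 0.041 in CD44v6-positive and 0.98 ± 0.39 in CD44v6-negative cells, a difference of -0.90 (exact permutation p = 0.333, the smallest possible, and 0.333 after adjustment). In CD44v6-positive sample 2 the guides stood at 7.77 to 1 while the passengers of the same hairpins stood at 0.926 to 1.

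**Figure D2:**
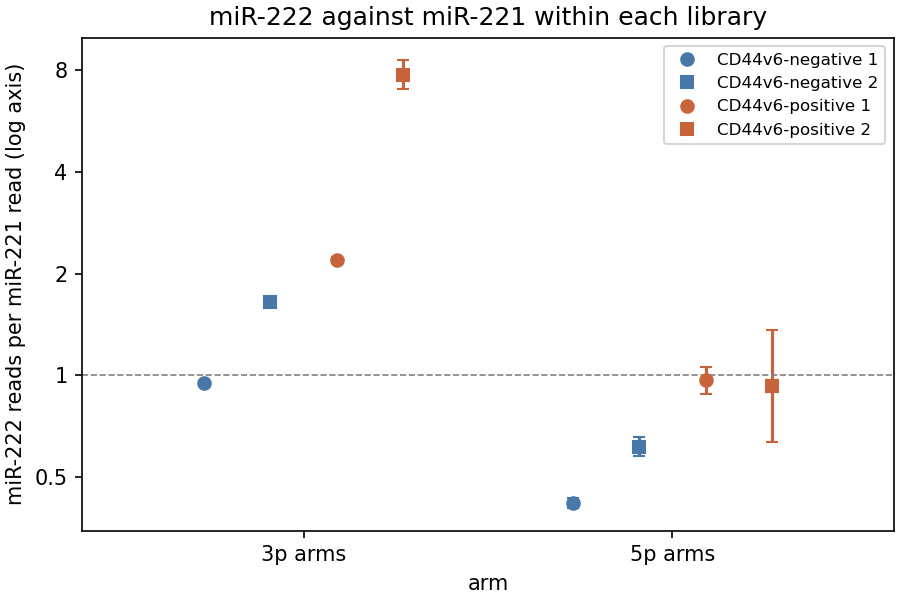
Reads of miR-222 for each read of miR-221 in each library, on a log axis, for the 3p and the 5p arms, with 95% Wilson intervals for counting error and a dashed line at equal reads. For the 3p arms the ratio was 0.946 and 1.65 in CD44v6-negative and 2.19 and 7.77 in CD44v6-positive samples, while the 5p ratios of the CD44v6-positive samples lay close together at 0.964 and 0.926.

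To place this, the same log2 ratio was taken for 43 other pairs of tested products, each of the same arm of neighbouring hairpins on a strand within 10000 bases (a comparison chosen after seeing the data). The absolute difference between the groups had a median of 0.91 over these pairs, and in 11 it was wider than the 1.72 of the miR-221 and miR-222 guides. Groups that do not overlap were seen in 61.4% of all 44 pairs. Most of the pairs held a product with few reads. In only 4 of the other pairs did both products have at least 100 reads in every library. Their differences were 0.19, 0.28, 0.84 and 1.62, the last for miR-200c-3p and miR-141-3p, a pair picked out after its values were seen. In 2 of these 4 pairs the groups did not overlap either. They were miR-200c-3p with miR-141-3p and miR-99b-5p with let-7e-5p (0.84).

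The 3p arm was the major product of both hairpins in every library. For miR-221 it supplied 83.9% (Wilson interval 83.6% to 84.2%) and 88.3% (87.8% to 88.7%) of the hairpin's reads in the CD44v6-negative samples. In the CD44v6-positive samples it supplied 92.1% (91.6% to 92.6%) and 89.0% (85.9% to 91.5%), the last from 491 reads. The interval of CD44v6-positive sample 2 includes the value of CD44v6-negative sample 2, so those 2 samples could not be told apart at this depth. For miR-222 the 3p share was 92.2% (92.0% to 92.4%) and 95.3% (95.04% to 95.5%) in the CD44v6-negative samples, and 96.4% (96.1% to 96.6%) and 98.5% (98.1% to 98.9%) in the CD44v6-positive samples. Expressed as reads of the guide for each read of the passenger, miR-221 stood at 5.21, 7.51, 11.6 and 8.09 and miR-222 at 11.8, 20.2, 26.5 and 67.9 in CD44v6-negative samples 1 and 2 and CD44v6-positive samples 1 and 2. In each library the miR-222 hairpin was the more strongly skewed to its 3p arm. Its ratio also rose steadily from the deepest library to the shallowest, whereas that of miR-221 did not. The part of depth in this was not tested.

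**Figure D3:**
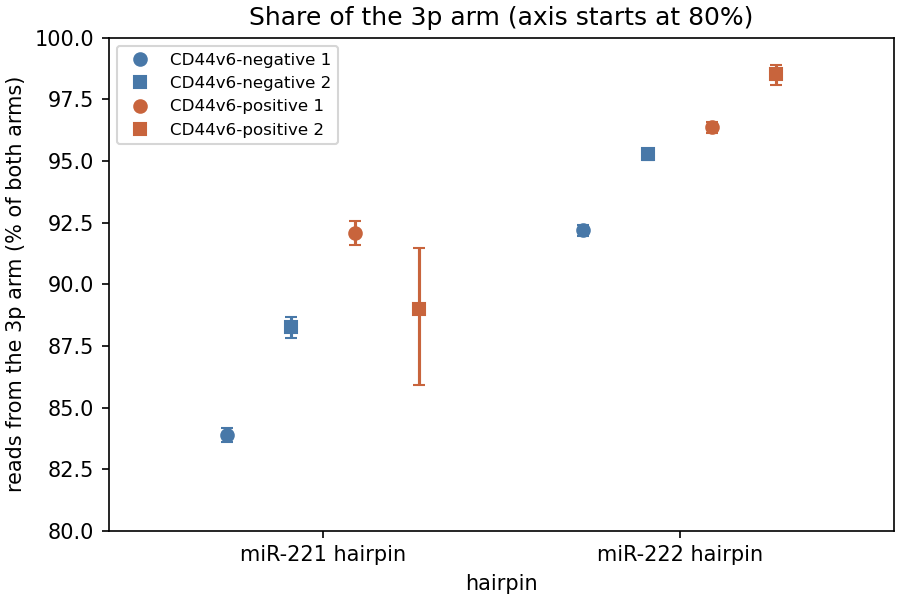
Share of each hairpin's reads that came from the 3p arm, in percent on an axis that starts at 80%, with 95% Wilson intervals for counting error. All CD44v6-positive points lie above the CD44v6-negative points of the same hairpin, and the interval of CD44v6-positive sample 2 for miR-221 (85.9% to 91.5%) spans the value of CD44v6-negative sample 2 (88.3%).

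Arm usage was tested in a single fit over the 137 hairpins whose arms both passed the filter. The fitted log2 ratio of 3p to 5p, positive minus negative, was 0.93 for miR-221 (edgeR adjusted p = 0.574) and 1.34 for miR-222 (edgeR adjusted p = 0.291), and neither passed. In this fit 1.46% of hairpins passed, 21.9% had an unadjusted p under 0.05 (neither of these 2 hairpins did, at 0.398 and 0.106), and the groups did not overlap in 59.1% of hairpins, which included both of these. The difference of the group means of the sample log2 ratios was 0.63 for miR-221 and 1.45 for miR-222, against a median absolute difference of 1.11 over the 137 hairpins. It was smaller in 46 hairpins than in miR-221 and in 88 than in miR-222, so both lay well inside the range of the other hairpins. The skew itself, averaged over samples without regard to its direction, was smaller in 55 hairpins than in miR-221 and in 87 than in miR-222. The 3p arm was the major one in 43.1% of the hairpins. With 1 sample left out the fitted difference ran from 0.52 to 1.06 for miR-221 and from 0.80 to 2.28 for miR-222, with CD44v6-negative sample 1 and CD44v6-positive sample 1 left out at the ends for miR-222.

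The 4 arms together took 1.52% and 1.17% of all reads in CD44v6-negative samples 1 and 2, and 3.83% and 2.55% in CD44v6-positive samples 1 and 2. In TMM-scaled CPM the sums were 22852 and 9759 against 37986 and 20512, so the CD44v6-positive range overlapped the CD44v6-negative range on that scale but not as a share of reads. miR-222-3p alone made up 42.6% and 57.6% of this sum of reads in the CD44v6-negative and 65.2% and 86.3% in the CD44v6-positive samples. By raw count miR-222-3p was the 33rd and 32nd most read entry of the CD44v6-negative and the 8th and 11th of the CD44v6-positive libraries. miR-221-3p was 31st and 47th, then 18th and 50th. The passengers ranked between 67th and 136th.

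**Figure D4:**
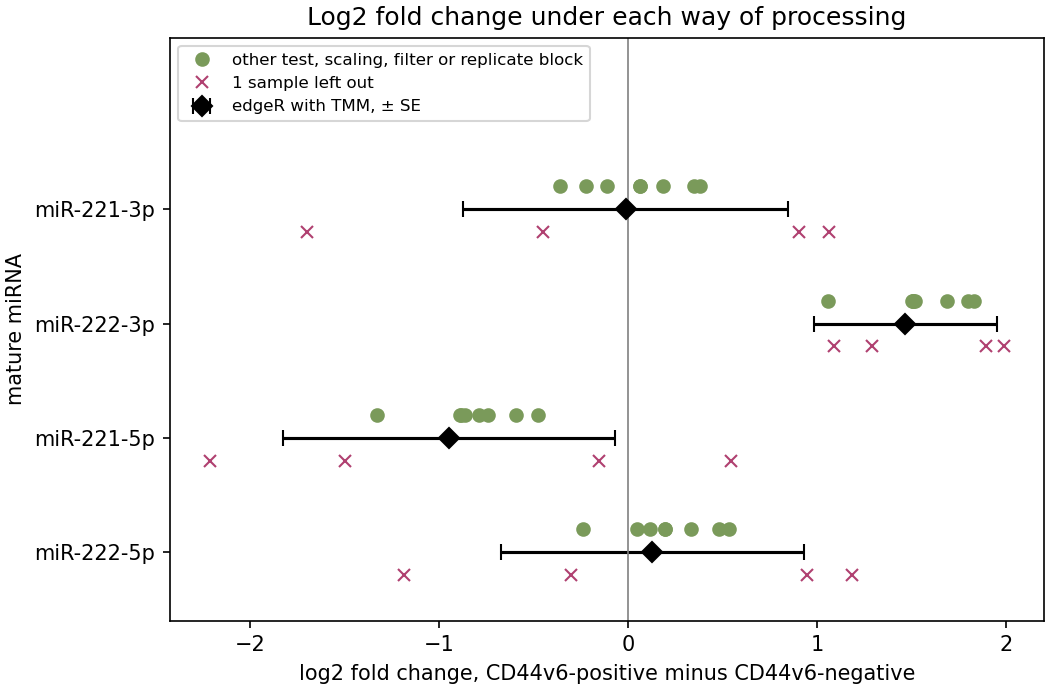
Log2 fold change of each arm, CD44v6-positive minus CD44v6-negative, from edgeR with TMM scaling (diamonds, with SE). Green points are the other tests, scalings and filters and the fit with a replicate block, and crosses are fits with 1 sample left out. The values of miR-222-3p all lie above 0, between 1.06 and 1.99, while those of the other 3 arms lie on both sides of 0.

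Profiles over the 4 samples were compared by the root mean square distance between log2 CPM values centred on their mean, a description with no test. From miR-221-3p the distance was 0.21 to miR-222-5p, 0.41 to miR-221-5p and 1.11 to miR-222-3p, its seed partner. The median distance from miR-221-3p to 185 other miRNAs with a mean of at least 100 CPM was 1.10, so miR-222-3p lay no nearer than a typical abundant miRNA. The 5 nearest to miR-221-3p were miR-574-3p (distance 0.19), miR-125b-5p (0.32), miR-210-3p (0.35), miR-200c-3p (0.37) and let-7g-5p (0.44). The 5 nearest to miR-222-3p were miR-1468-5p (0.092), miR-375 (0.29), miR-1275 (0.30), miR-320a (0.31) and miR-92a-3p (0.33). As an example, miR-1468-5p was at 81.5 and 54.6 CPM in the CD44v6-negative and at 208 and 162 CPM in the CD44v6-positive samples.

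Other miRNAs reported to repress the same targets were read beside the pair. Of 4 reported to repress CDKN1B, all were tested, none passed with edgeR, and 2 had positive and 2 negative log2 fold changes, with a median of -0.61. miR-148a-3p was at 15819 and 11457 CPM in the CD44v6-negative and 4639 and 6103 CPM in the CD44v6-positive samples (-1.34 ± 0.44, edgeR adjusted p = 0.125). miR-24-3p was at 2107 and 901 against 644 and 224 CPM (-1.78 ± 0.71, edgeR adjusted p = 0.154). For both of these the groups did not overlap, with the positive samples lower, the direction found in 34.6% of tested miRNAs. miR-181a-5p (0.46 ± 0.55) and miR-196a-5p (0.12 ± 0.53) overlapped. Summed over the list, the level was 24532 and 16257 CPM in the CD44v6-negative and 14864 and 10975 CPM in the CD44v6-positive samples.

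Of 6 miRNAs reported to repress KIT, 4 were tested, none passed with edgeR, and all 4 had negative log2 fold changes, with a median of -1.45. Of all tested miRNAs 55.4% had a negative value, with a median of -0.31. miR-34a-5p was at 1929 and 598 CPM against 866 and 224 CPM, and the groups overlapped. miR-193b-3p (-0.68 ± 0.87) overlapped as well. miR-193a-3p (-1.90 ± 0.75) and miR-218-5p (-1.71 ± 0.78) did not, but each had 7 reads in CD44v6-positive sample 1 and 2 and 3 reads in CD44v6-positive sample 2, and 34.6% of tested miRNAs likewise had both positive samples lower. miR-494-3p had between 0 and 4 reads in each library. miR-137 had 0 reads in all 4, which allows up to 0.544 CPM in CD44v6-negative sample 2 and 15.6 CPM in CD44v6-positive sample 2.

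miR-221 and miR-222 are also well read in endothelium, blood and stroma, so markers of these were read beside them. Of 9 markers of blood and endothelium 7 were tested and none was at 0 in all libraries. Their summed level was 7317 and 4113 CPM in the CD44v6-negative and 5178 and 4836 CPM in the CD44v6-positive samples. The endothelial miR-126-3p was at 336 and 267 against 173 and 141 CPM, lower in both CD44v6-positive samples. So was miR-126-5p from the same hairpin, at 3842 and 2433 against 1222 and 959 CPM. The erythroid miR-486-5p went the other way, at 2975 and 1289 against 3688 and 3111 CPM, higher in both CD44v6-positive samples. The sum is made up largely of these last 2 miRNAs, which differ in direction. Among all tested miRNAs the groups did not overlap in 34.6% with the CD44v6-positive samples lower and in 24.9% with them higher. The erythroid miR-451a was at 24.9 and 7.62 against 15.1 and 281 CPM. Of 6 markers of stroma and muscle 3 were tested, and their summed level was 1274 and 865 CPM in the CD44v6-negative samples, 857 CPM in CD44v6-positive sample 1 and 5071 CPM in CD44v6-positive sample 2. Of the last, 4972 CPM was miR-143-3p, whereas miR-145-5p was at 57.3 CPM there. miR-451a and miR-143-3p were thus high in CD44v6-positive sample 2 alone. So was miR-142-5p, at 114 and 90.8 against 60.4 and 276 CPM, the last from 53 reads. The other arm of its hairpin, miR-142-3p, was at 15.1 and 20.3 against 9.71 and 20.8 CPM, the last from 4 reads. miR-144-3p and miR-199a-5p were also highest in CD44v6-positive sample 2, at 36.5 CPM from 7 reads each. miR-126-3p, miR-126-5p and miR-145-5p went the other way and were lowest in that sample. The part of these markers in the values of the miR-221 and miR-222 arms was not tested.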

How the data were processed

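Small RNA libraries of sorted HCT116 cells were sequenced, and the authors deposited raw counts of reads per mature miRNA as 1 table of whole numbers. The submitters' processing notes name GRCh38 as build and list CASAVA 1.8.2, Bowtie 0.12.9, cutadapt 1.10 and DESeq2. What each tool was set to do, and how reads that map to several places were counted, is not given in the sources used here. The labels list 8 sequencing entries with 4 combined identities, and each table column holds 1 identity, so n was 2 per group. The deposited normalized copy of the table was not used.

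Counts were tested with edgeR 4.0.16 in R 4.3.3 (TMM, filterByExpr with a minimum count of 10 and total of 15, glmQLFit, glmQLFTest, Benjamini-Hochberg adjustment). The SE was derived from the log2 fold change and the F statistic. Arm usage was tested with diffSpliceDGE on arms joined by name. Log ratios used a pseudocount of 0.5 reads. DESeq2 1.42.0 and limma 3.58.1 served as alternatives, with other scalings and filters, a replicate block and left-out samples. The edgeR scripts were tested on simulated data.

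All members were named, with the 5 nearest profiles of each guide and fixed lists of miRNAs reported to repress CDKN1B or KIT and of cell type markers. The members and lists were chosen with earlier results of these data known.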

Additional observations from a re-analysis of the deposited data

How the results depend on the processing

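Of the 4 arms, miR-222-3p kept its sign in each alternative run. It passed an adjusted p of 0.05 with total count scaling (1.83) and with the replicate block (1.501), but in no other run. With DESeq2, DESeq2 size factors, upper quartile scaling, total count scaling and the filter at 10 CPM in 2 samples, miR-221-3p turned positive, at 0.064, 0.064, 0.35, 0.38 and 0.18. With no filter miR-222-5p turned negative, at -0.24. Leaving out 1 sample at a time, the log2 fold changes ran from -1.70 to 1.06 for miR-221-3p, from -2.21 to 0.54 for miR-221-5p, from 1.09 to 1.99 for miR-222-3p and from -1.19 to 1.18 for miR-222-5p. The causes were not tested.

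The number of miRNAs past the threshold was 0 with edgeR and TMM, 75 with DESeq2, 4 with limma-voom, 48 with total count scaling, 77 with no filter and 26 to 55 with 1 sample left out. Upper quartile scaling shifted the median log2 fold change of all tested miRNAs by 0.34, and total count scaling by 0.31. For arm usage 2 hairpins passed, with 0 to 8 when 1 sample was left out, and the fitted arm ratios of miR-221 and miR-222 stayed positive throughout.

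With the replicate block 228 miRNAs and 42 hairpins passed, among them miR-221-5p (-0.86), miR-222-3p and the arm ratio of miR-222 (1.45). The samples share only a number in the labels. Same-numbered samples deviated together (correlation 0.361 over tested miRNAs), but 2 pairs are too few to take this as pairing. In both groups sample 1 was also the deeper library, and the part of depth in this correlation was not tested.

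Depth was lowest in CD44v6-positive sample 2, where the 5p arms had 54 and 50 reads.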
